A study of Mus musculus with 20 samples.

Results

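Heat shock proteins and DnaJ proteins are the molecular chaperones that fold, hold and refold other proteins, and their RNAs were followed here in whole mouse kidney after puberulic acid. The members were all rows of the deposited gene table whose symbol starts with Hspa, Hspb, Hspd, Hspe, Hsph, Hsp90, Dnaja, Dnajb or Dnajc. There were 88 such rows of 55822, made up of 74 genes and 14 pseudogenes. Poly(A) RNA from kidneys of male C57BL/6J mice, an inbred strain, aged 8 weeks at the start, was sequenced. The control group (5 samples) received phosphate-buffered saline and the puberulic acid group (5 samples) received 1 mg of puberulic acid, a tropolone compound made by moulds, per day. Both groups were dosed once daily for 6 days and, after 1 day without dosing, kidneys were taken on day 7. The protocol gives gavage or intraperitoneal injection as the route and the design text gives oral dosing, so the route of each sample is not known. The other 2 of the 4 groups received normal or toxic lots of the supplement Choleste-Help, and their 10 columns were not analysed here because the column names do not show which lot is which. The labels number the samples without stating that each is a separate mouse, so p-values measure the spread between these samples.

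HSP70 proteins bind and release unfolded protein in a cycle driven by ATP. DnaJ proteins (also called HSP40) deliver clients to HSP70 and trigger ATP hydrolysis, while HSP110 proteins exchange the nucleotide. HSP90 finishes the folding of kinases and steroid receptors, HSP60 and HSP10 form the mitochondrial folding chamber, and small heat shock proteins hold unfolded protein without ATP. The cytosol, the endoplasmic reticulum (ER) and the mitochondrion each hold their own set. Stress in the cytosol induces chaperones through the factor HSF1, which binds heat shock elements, and stress in the ER does so through the unfolded protein response, which uses ER stress elements.

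Promoter sequences are shown for the members on which the stress programs are usually read. They were taken from RefSeq (mouse build GRCm38.p6), each read 5′ to 3′ on the gene's own strand up to the base before the start site, with motif matches in capitals. In the first 2 lines, the heat-inducible HSP70 genes Hspa1a (chr17:34972157-34972276, minus strand) and Hspa1b (chr17:34959239-34959358, minus strand) hold the pair of heat shock units GAANNTTC at the same place, and 119 of these 120 bases are identical between them. In the third line, Hspb1 (chr5:135887799-135887918, plus strand), the gene of the small heat shock protein HSP27 family, holds 2 such pairs.
Hspa1a: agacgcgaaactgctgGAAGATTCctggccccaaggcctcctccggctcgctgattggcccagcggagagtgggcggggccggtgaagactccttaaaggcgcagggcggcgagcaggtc
Hspa1b: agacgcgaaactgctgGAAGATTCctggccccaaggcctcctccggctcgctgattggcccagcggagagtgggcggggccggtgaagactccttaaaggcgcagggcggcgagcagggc
Hspb1: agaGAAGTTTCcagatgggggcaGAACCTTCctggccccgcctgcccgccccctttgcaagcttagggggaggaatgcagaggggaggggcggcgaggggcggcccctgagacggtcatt

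The ER members Hspa5 (chr2:34771970-34772089, plus strand), Hsp90b1 (chr10:86705445-86705664, minus strand) and Dnajc3 (chr14:118937812-118937931, plus strand) hold the ER stress element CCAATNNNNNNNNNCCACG, which Hsp90b1 has once on each strand. The mitochondrial pair Hspd1 and Hspe1 lie head to head and share the stretch shown for Hspe1 (chr1:55088053-55088082, plus strand), in which overlapping 3-unit heat shock elements GAANNTTCNNGAA, one on each strand, are in capitals.
Hspa5: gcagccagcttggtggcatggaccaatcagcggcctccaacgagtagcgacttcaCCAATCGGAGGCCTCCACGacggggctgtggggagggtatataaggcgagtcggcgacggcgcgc
Hsp90b1: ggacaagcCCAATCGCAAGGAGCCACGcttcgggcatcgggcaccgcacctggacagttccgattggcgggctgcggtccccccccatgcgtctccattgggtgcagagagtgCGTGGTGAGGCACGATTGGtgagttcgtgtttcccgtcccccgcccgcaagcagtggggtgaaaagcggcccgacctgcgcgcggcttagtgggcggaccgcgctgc
Dnajc3: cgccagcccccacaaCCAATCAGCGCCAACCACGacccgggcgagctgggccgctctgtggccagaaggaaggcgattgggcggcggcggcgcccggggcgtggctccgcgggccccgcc
Hspe1: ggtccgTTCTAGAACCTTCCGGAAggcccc

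In all, 5 motifs were searched on both strands in the 250 bases before each start, in 77 windows of 60 member genes and in all 32851 windows of the RefSeq table. The first search used 3 motifs. The 3-unit heat shock element was in 4 member windows (Dnajb6, Hspd1 and Hspe1) and in 0.466% of all windows. The Dnajb6 windows overlap and hold the same match, and Hspd1 and Hspe1 share a stretch, so these windows are not independent. Hspa1a, Hspa1b and Hspb1 held no match to it. The ER stress element was in 3 member windows and in 0.113% of all, and the amino acid response element TGATGNAA was in 1 member window (Hspa14) and in 3.45% of all. The 2-unit pairs were added after these matches had been seen: GAANNTTC was in 12 member windows and 6.69% of all, and TTCNNGAA in 8 member windows and 7.17% of all. Both pairs lie inside the 3-unit element and so overlap it. A match is a run of letters and not a measured binding site.

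The libraries held 18409877 to 22725274 estimated counts in controls and 19897287 to 24705587 after puberulic acid. Levels are given as CPM, counts scaled to a common library size, with sizes corrected by the trimmed mean of M-values (TMM), and a gene was called where the edgeR quasi-likelihood test gave an adjusted p below 0.05 over 16266 genes tested. The controls had TMM factors of 0.827 to 0.848 and the treated samples of 1.17 to 1.26, and the median log2 fold change of all genes was 0.05 with TMM and 0.56 with total counts alone. Values below use TMM, and called members whose call was lost with total counts are named as such. Members whose direction turned are listed in the closing section. Some members not called with TMM were called higher with total counts, and not all of these are named. Markers of kidney cell types also moved with the groups. The summed CPM of 8 proximal tubule markers was 7662 to 12574 in controls and 297 to 979 after puberulic acid, and all 8 fell. By contrast, 4 of 5 fibroblast markers rose (110 to 161 against 532 to 2109). Of 6 smooth muscle and pericyte markers 3 rose and 1 fell (Rgs5, -0.72), their sum being 103 to 207 against 230 to 725. With total counts the Rgs5 call was lost (-0.21; adjusted p = 0.506), and 4 of the 6 were higher. Of 4 collecting duct markers 3 fell (429 to 615 against 152 to 291), with total counts too. Of 4 loop and distal tubule markers 3 fell (3837 to 5721 against 3144 to 6315). With total counts only 1 of these, Calb1, was lower, and Umod was called higher (0.57; adjusted p = 0.0119). Of 5 tested myeloid and lymphoid markers 2 rose, Ptprc and Lyz2 (71.8 to 163 against 101 to 368). Of 4 podocyte markers (223 to 484 against 107 to 426) and of 4 endothelial markers (136 to 219 against 72.2 to 186), 1 each fell. These were Nphs1 and Kdr, and with total counts neither call held (adjusted p = 0.267 for each). At that scaling the podocyte marker Synpo was called higher (0.79; adjusted p = 0.00784). Adipocyte markers summed to 23.8 to 53.5 against 33.2 to 304, with Adipoq at or under 3 counts in controls. Adipoq and Plin1 each reached 10 counts in only 2 treated samples. Of the 2 tested, Fabp4 was not called, and Cidec was called higher (4.68; adjusted p = 0.000412) but reached 10 counts in only 1 control. In bulk RNA, fewer cells of a type and less RNA per cell cannot be told apart, and the part of these shifts in the results was not tested.

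Of the 88 rows, 68 had enough counts to be tested. The 20 others were the 14 pseudogenes and Dnajb7, Dnajb8, Dnajc5b, Dnajc5g, Hspb3 and Hspb9, and 13 of these 20 were listed at 0 in all 10 libraries. After puberulic acid 19 tested members rose and 26 fell, which is 27.9% and 38.2%, against 34.2% and 31.1% of all genes tested. In either direction 66.2% were called, against 65.3% of all genes, and control and treated values were fully apart for 32 members (47.1%), against 50.1% of all genes. As a whole the members thus changed about as often as other genes. With total counts alone, 37 rose (54.4%, against 56.4% of all genes at that scaling) and 13 fell (19.1%, against 15.5%): all 19 risen members were still called higher, and 13 of the 26 fallen members were still called lower. Among the risen, Dnajb13, Dnajb3 and Hspa1l did not reach 10 counts in all controls and entered the test through the group where they are high, so their calls support nothing. Without these 3, 16 of 65 members rose (24.6%) and 26 fell (40.0%).

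The classes were counted apart. Of 24 tested heat shock proteins (HSP110, HSP90, HSP70, HSP60, HSP10 and small heat shock proteins), 9 rose and 3 fell. Without Hspa1l, 8 of 23 rose (34.8%, near the 34.2% of all genes) and 3 fell (13.0%, against 31.1%), with a median log2 fold change of 0.09. Of 41 tested DnaJ proteins, 8 rose and 23 fell. Without Dnajb13 and Dnajb3, 6 of 39 rose (15.4%) and 23 fell (59.0%), with a median of -0.40. With total counts these reduced sets gave 16 higher (69.6%) and 2 lower (8.70%), and 15 higher (38.5%) and 11 lower (28.2%), beside the 56.4% and 15.5% of all genes. By compartment, 11 of 35 cytosolic and nuclear members rose and 9 fell, or 9 of 33 (27.3%) in each direction without Dnajb3 and Hspa1l. In the ER, 3 of 14 members rose (21.4%) and 5 fell (35.7%). With total counts, 22 of the 35 were higher (62.9%) and 2 lower, and in the ER 8 (57.1%) and 1, where 56.4% of all genes were higher. Of 8 mitochondrial members, 7 fell (87.5%, against 31.1% of all genes) and 0 rose. With total counts 6 of the 8 were lower (75.0%, against 15.5% of all genes) and 1, Hspa9, was called higher. The difference between classes or compartments was not tested.

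**Figure D1:**
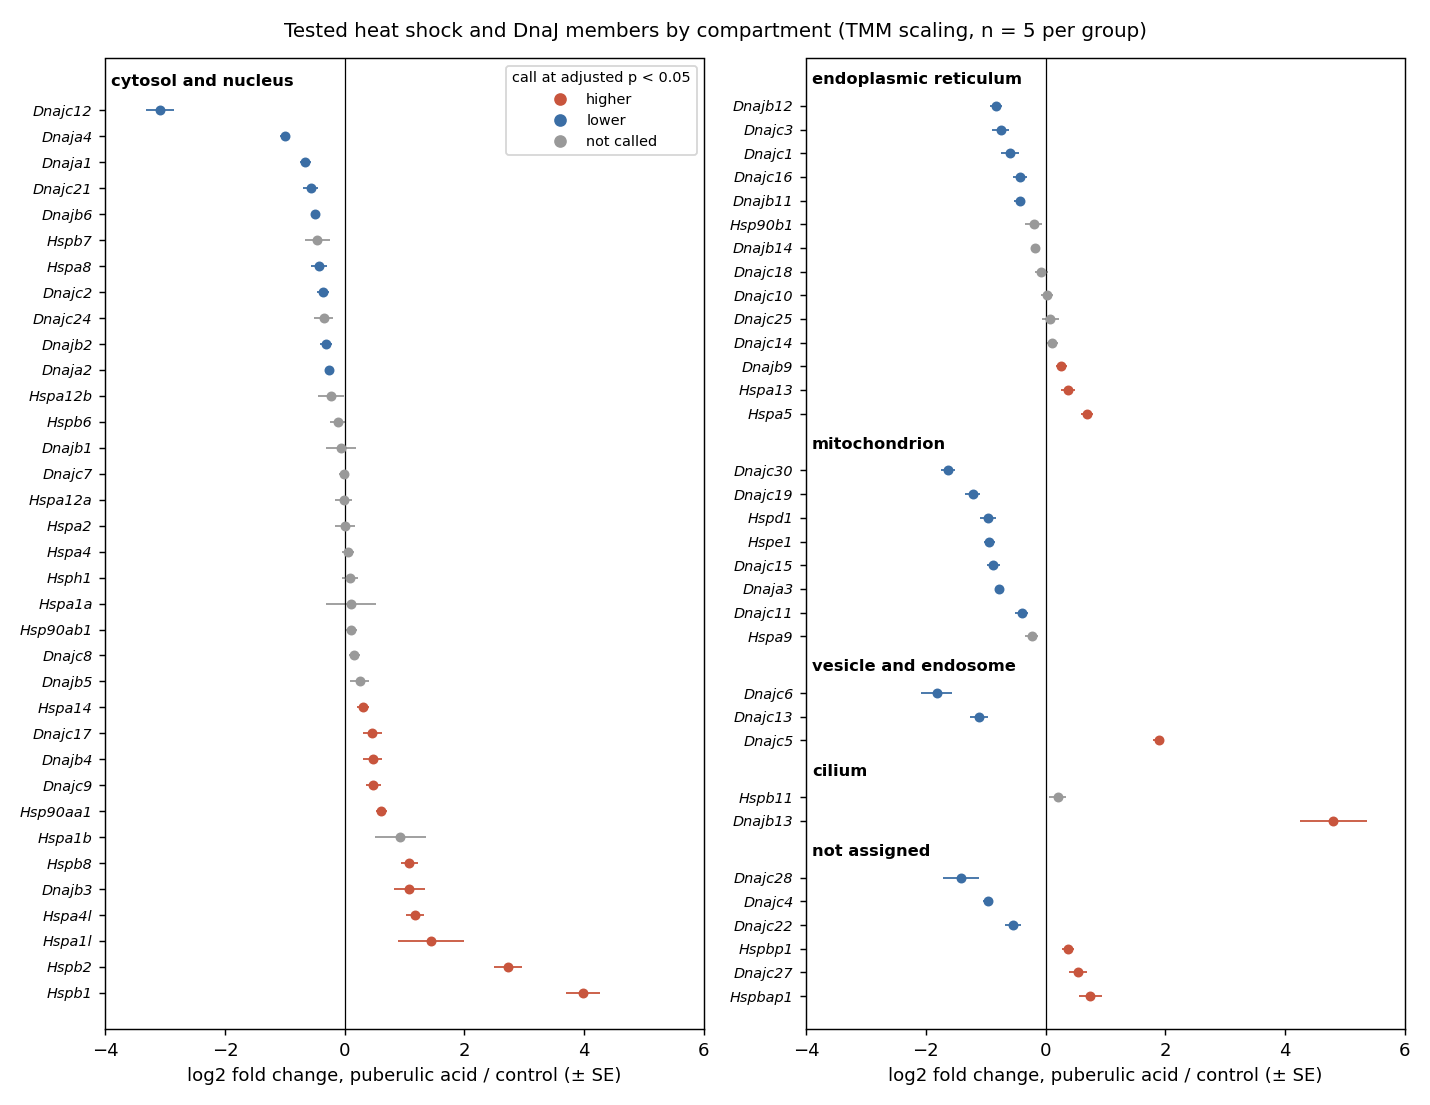
Log2 fold change of the 68 tested members, puberulic acid over control, with its standard error, by compartment; colour gives the call at adjusted p below 0.05 with 5 samples per group. Hspb1 stands at 3.98 and Dnajc12 at -3.09, 7 of 8 mitochondrial members lie left of 0 and are called, and the fitted value of Dnajb13 is no bound because its controls were at or under 3 counts.

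Small heat shock proteins held the highest rise of a well measured member. Hspb1, which binds unfolded protein and actin, was at 6.11, 9.17, 10.2, 17.6 and 19.2 CPM in controls 1 to 5 and at 161, 222, 220, 199 and 175 CPM in puberulic acid samples 1 to 5. The groups were far apart, with a 15.7-fold higher level (log2 fold change 3.98 ± 0.29, SE; adjusted p = 3.24e-07). Hspb8, which works with the co-chaperone Bag3 to hand clients to autophagy, was at 5.99, 5.48, 5.22, 4.92 and 6.88 CPM in controls and 9.98, 12.2, 14.3, 12.4 and 11.5 CPM after puberulic acid, with no overlap (1.08 ± 0.14; adjusted p = 3.05e-05). Hspb2, best known from muscle, was at 2.11, 1.37, 2.48, 2.31 and 1.17 CPM against 9.72, 14.7, 13.8, 13.7 and 10.9 CPM (2.73 ± 0.23; adjusted p = 9.19e-07). It lies within a gene model of Cryab in RefSeq, so how reads were divided between them is uncertain. Cryab, αB-crystallin, the small heat shock protein outside the symbol rule, was at 86.2 ± 16.1 CPM (SD, n = 5) against 1280 ± 334 CPM (3.89; adjusted p = 4.74e-08). Hspb6 and Hspb7 were not called, at -0.11 and -0.46, but Hspb6 was called higher with total counts (0.40; adjusted p = 0.0178), and Hspb7 lower by DESeq2 (adjusted p = 0.0436) and without puberulic acid sample 3 (-0.66; adjusted p = 0.00944). Beside the muscle-linked members, striated muscle markers summed to 0.187 to 2.62 CPM in controls and 2.34 to 6.23 CPM after puberulic acid, and the part of muscle RNA in these values was not tested. Tnnt2 was at 0.428 ± 0.654 against 3.35 ± 1.43 CPM (SD, n = 5) and reached 10 counts in 1 control, so it too entered the test through the treated group. Acta1 was at 0.161 to 0.817 CPM after puberulic acid and at or under 3 counts in controls, while Myl2 was at or under 3 counts in every library. Myh7 (0.257 ± 0.341 against 0.0701 ± 0.0644 CPM), Mb (0.421 ± 0.517 against 0.275 ± 0.188 CPM) and Ckm (0.0342 ± 0.0766 against 0.042 ± 0.0734 CPM; SD, n = 5) overlapped between the groups, so the list did not move as one. The smooth muscle and fibroblast sums given above were also higher.

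**Figure D2:**
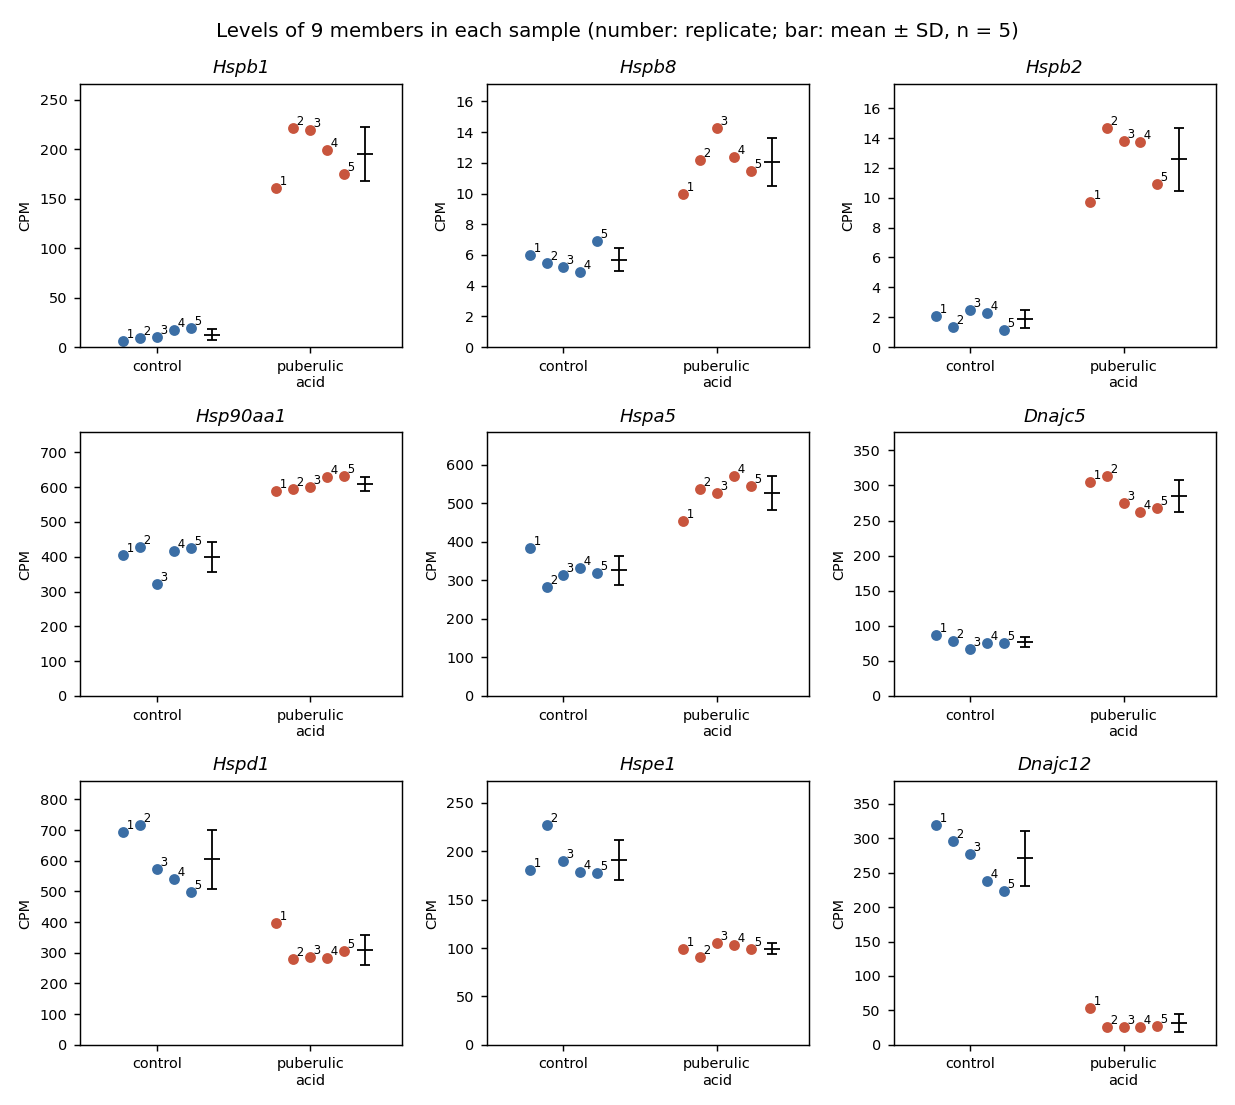
CPM of named members in each of the 5 control and 5 puberulic acid samples, with mean and SD. Hspb1 lies between 161 and 222 in every puberulic acid sample and below 20 in every control, and Dnajc12 lies between 25.3 and 54.1 against 224 to 319.

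The paired cytosolic HSP90 genes moved unequally. Hsp90aa1, the stress-inducible form, was at 406, 429, 323, 416 and 425 CPM in controls and 588, 595, 601, 628 and 631 CPM after puberulic acid. Every treated sample was above every control (0.61 ± 0.09; adjusted p = 0.000101). Hsp90ab1, the constitutive form, was at 912, 1131, 959, 1134 and 1124 CPM against 1167, 1110, 1114, 1145 and 1134 CPM and was not called (0.11 ± 0.09; adjusted p = 0.297; with total counts 0.62, adjusted p = 5.64e-05). The ratio of Hsp90aa1 to Hsp90ab1 within a library does not depend on the scaling, and it was 0.337 to 0.446 in controls and 0.503 to 0.557 after puberulic acid.

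The cytosolic HSP70 genes showed no uniform change. Hspa8, the constitutive HSC70 and the most abundant member, was at 1780, 2035, 2317, 2457 and 2909 CPM in controls and 1608, 1534, 1579, 2022 and 1802 CPM after puberulic acid. The ranges overlapped and the gene was called lower (-0.43 ± 0.14; adjusted p = 0.0158), but with total counts its value was 0.08 (adjusted p = 0.618). Hspa1a and Hspa1b, the heat-inducible HSP70 genes whose promoters are printed above, are near-identical copies, so reads cannot be assigned to either with certainty. Hspa1a was at 17.5, 16.7, 19.5, 69.5 and 58.4 CPM in controls and 20.9, 38.8, 43.0, 40.9 and 51.4 CPM after puberulic acid. Hspa1b was at 19.7, 20.5, 19.7, 92.0 and 68.6 CPM against 57.7, 84.3, 87.7, 86.8 and 104 CPM. Controls 4 and 5 stood above the other 3 controls for both genes, and the groups overlapped. Their sum was 37.1, 37.2, 39.1, 162 and 127 CPM in controls and 78.6 to 155 CPM after puberulic acid.

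Neither copy was called: Hspa1a was at 0.11 ± 0.42 (adjusted p = 0.838) and Hspa1b at 0.93 ± 0.43 (adjusted p = 0.076). The call for Hspa1b changed when either of controls 4 and 5 was left out. Without control 4 it was 1.38 (adjusted p = 0.00826), without control 5 it was 1.14 (adjusted p = 0.0493), and with total counts it was 1.44 (adjusted p = 0.0108). Hspa1l, the relative of Hspa1a known from testis, was at 0.0636 to 0.748 CPM against 0.445 to 1.16 CPM (1.44 ± 0.55), a value without weight because it entered the test through the treated group alone. Hspa14, a ribosome-bound HSP70, was called higher by 0.31 (adjusted p = 0.0131), but not without puberulic acid sample 4 (adjusted p = 0.0582). Hspa2, Hspa12a and Hspa12b were not called. With total counts Hspa2 (0.51; adjusted p = 0.0217) and Hspa12a (0.49; adjusted p = 0.0129) were called higher.

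**Figure D3:**
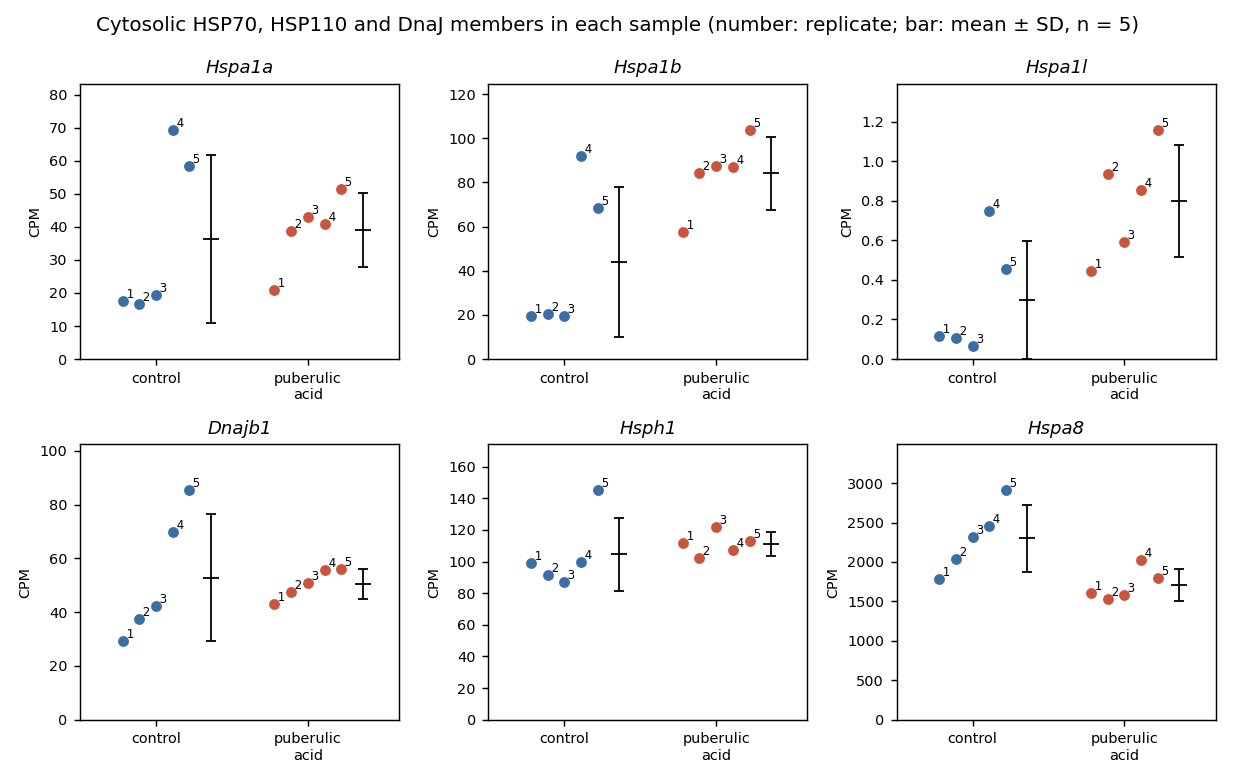
CPM of the heat-inducible and constitutive cytosolic HSP70, HSP110 and DnaJ members in each sample, numbered by replicate, with mean and SD (n = 5). Controls 4 and 5 lie at 69.5 and 58.4 for Hspa1a where the other controls lie at 16.7 to 19.5, so the groups overlap.

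Of the HSP110 exchange factors, Hspa4l rose and the others were not called. Hspa4l was at 31.7, 36.1, 19.9, 23.7 and 32.5 CPM in controls and 62.1, 72.5, 66.1, 62.0 and 63.6 CPM after puberulic acid. The groups were separate, with a 2.27-fold higher level (1.18 ± 0.15; adjusted p = 2.2e-05). Hsph1, HSP105, was at 98.9, 91.5, 86.9, 100 and 145 CPM against 112, 102, 122, 107 and 113 CPM (0.09; adjusted p = 0.562), and without control 5, its highest sample, it was 0.23 (adjusted p = 0.0331). Hspa4 was at 0.05 (adjusted p = 0.68). With total counts, both were called higher, Hsph1 at 0.60 (adjusted p = 0.00147) and Hspa4 at 0.56 (adjusted p = 0.00051).

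Of 17 tested cytosolic and nuclear DnaJ members, 4 rose and 8 fell (70.6% called, against 65.3% of all genes), and with total counts 8 were higher (47.1%, against 56.4% of all genes) and 2 lower (11.8%, against 15.5%). Without Dnajb3, 3 of 16 rose and 8 fell. Dnaja1, a main partner of HSC70, was at 283, 275, 252, 288 and 281 CPM in controls and 184, 167, 152, 168 and 205 CPM after puberulic acid (-0.66 ± 0.09; adjusted p = 5.42e-05; with total counts -0.14, adjusted p = 0.219). Dnaja4 fell 2.00-fold, from 34.9 ± 1.71 to 17.4 ± 1.53 CPM (SD, n = 5; adjusted p = 1.07e-06), and remained lower with total counts (-0.49). Dnajb1, the heat-inducible HSP40, was at 29.3, 37.4, 42.4, 69.9 and 85.3 CPM in controls and 42.9, 47.6, 50.9, 55.5 and 56.0 CPM after puberulic acid. The treated samples lay within the control range and Dnajb1 was not called (-0.06; adjusted p = 0.841). Dnaja2, Dnajb2, Dnajb6, Dnajc2 and Dnajc21 were called lower by 0.27 to 0.57 on the log2 scale, and none of these calls held with total counts, where Dnaja2 was called higher (0.24; adjusted p = 0.00685). Dnajc9 rose by 0.48 (adjusted p = 0.00332). Dnajb4 (0.47) and Dnajc17 (0.46) were called higher, but their calls were lost in several fits that left out 1 sample, with adjusted p up to 0.0957 and 0.0904, and that of Dnajc17 also without the filter on low counts (0.0505). Dnajb3 was at 0.454 ± 0.134 CPM against 0.965 ± 0.105 CPM (SD, n = 5), and entered the test through the treated group alone.

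Dnajc12, which escorts the aromatic amino acid hydroxylases, showed the deepest fall of all members. It was at 319, 296, 277, 238 and 224 CPM in controls and 54.1, 25.8, 25.3, 26.2 and 27.4 CPM after puberulic acid. The groups were far apart, at an 8.52-fold lower level (-3.09 ± 0.23; adjusted p = 3.53e-07). Puberulic acid sample 1 lay above the other 4, and without it the log2 fold change was -3.39. Per kilobase of transcript, Dnajc12 went from 89.5 to 10.5 CPM per kb, from rank 8 to rank 40 of 74 member genes, while Hspb1 went from 13.4 to 210 CPM per kb, from rank 34 to rank 4. Hspa8 and Hsp90ab1 held ranks 1 and 2 in both groups.

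In the ER, the HSP70 rose while its partners did not move together. Hspa5 (BiP), which holds the ER stress sensors in check and folds secreted proteins, was at 383, 283, 313, 332 and 318 CPM in controls and 454, 536, 528, 570 and 544 CPM after puberulic acid. All treated samples were above all controls (0.69 ± 0.10; adjusted p = 6.41e-05). Hsp90b1 (GRP94) was at 534, 398, 364, 357 and 314 CPM against 328, 301, 322, 386 and 373 CPM, overlapped, and was not called (-0.20; adjusted p = 0.217). Dnajc3 (p58IPK), which restrains the kinase PERK and partners BiP, was at 207, 179, 157, 159 and 127 CPM against 121, 85.8, 90.3, 92.9 and 104 CPM and fell by 0.75 ± 0.14 (adjusted p = 0.000407; with total counts -0.24, adjusted p = 0.131). The promoters of all 3 genes carry the ER stress element printed above, and of the 3, Hspa5 was called higher, Dnajc3 lower except with total counts, and Hsp90b1 in neither direction.

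Of the other ER members, Hspa13 rose (0.38; adjusted p = 0.0129) and Dnajb9 (ERdj4), at 66.2, 60.8, 57.0, 53.4 and 49.7 CPM against 75.2, 61.3, 69.8, 73.5 and 64.4 CPM, was called higher (0.26 ± 0.09; adjusted p = 0.0288), a call lost without the filter on low counts (adjusted p = 0.0715) and up to an adjusted p of 0.112 when single samples were left out. Dnajb11 (ERdj3), at 106, 107, 109, 92.0 and 85.6 CPM against 74.1, 68.7, 72.3, 78.8 and 76.1 CPM, fell by 0.43 (adjusted p = 0.000806) and Dnajb12, a membrane DnaJ of ER quality control, by 0.83 (adjusted p = 2.25e-05). Dnajc1 and Dnajc16 also fell, and Dnajb11, Dnajc1 and Dnajc16 lost their calls with total counts. Of 24 other genes of ER folding and the unfolded protein response, 9 rose and 6 fell (62.5% called, near the 65.3% of all genes). Their median was -0.06. With total counts 17 were higher (70.8%, against 56.4% of all genes) and 3 lower (12.5%, against 15.5%). Ddit3 (CHOP) rose by 1.82 and Serpinh1, the collagen chaperone HSP47, by 1.45, while Herpud1 fell by 2.03 and Sil1, an exchange factor of BiP, fell by 1.49.

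Mitochondrial members fell. Hspd1 (HSP60) was at 694, 716, 572, 542 and 497 CPM in controls and 396, 280, 287, 283 and 307 CPM after puberulic acid. Its lid Hspe1 (HSP10) was at 181, 227, 190, 179 and 178 CPM against 99.3, 90.8, 105, 103 and 99.2 CPM. Both were about equally lower, at -0.96 ± 0.13 (adjusted p = 5.44e-05) and -0.94 ± 0.09 (adjusted p = 2.2e-06), and these are the genes that share the heat shock element printed above. Hspa9 (mortalin), the mitochondrial HSP70, was at 803, 842, 762, 687 and 680 CPM against 797, 605, 596, 598 and 620 CPM and was not called (-0.23; adjusted p = 0.0779). Without puberulic acid sample 1, its highest treated sample, it was -0.34 (adjusted p = 0.00272), whereas with total counts it was 0.28 (adjusted p = 0.0302).

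The 5 mitochondrial DnaJ members all fell. Dnaja3 (Tid1) was at 135, 145, 133, 139 and 126 CPM against 91.0, 73.3, 77.8, 76.2 and 79.0 CPM (-0.77 ± 0.08; adjusted p = 4.83e-06). Dnajc19, of the inner membrane import motor, was at 85.2, 79.9, 86.2, 77.3 and 64.8 CPM against 40.4, 28.5, 30.2, 39.6 and 30.1 CPM (-1.22 ± 0.12; adjusted p = 4.38e-06), and its relative Dnajc15 fell by 0.87. Dnajc30, which acts in complex I turnover, was at 42.7, 48.2, 44.9, 47.5 and 43.2 CPM against 19.7, 12.7, 14.7, 13.0 and 13.0 CPM (-1.63 ± 0.12; adjusted p = 4.77e-07). Dnajc11 fell by 0.40, the one mitochondrial call lost with total counts. All 14 other genes of mitochondrial import and protein quality control were called lower, against 31.1% of all genes, with a median of -0.73. Among them were the mitochondrial HSP90 Trap1 (-1.55) and the exchange factor Grpel2 (-1.33). With total counts 6 of the 14 were lower (42.9%, against 15.5% of all genes). The proximal tubule, whose markers fell, is a segment rich in mitochondria, and the part of its markers' fall in these values was not tested.

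**Figure D4:**
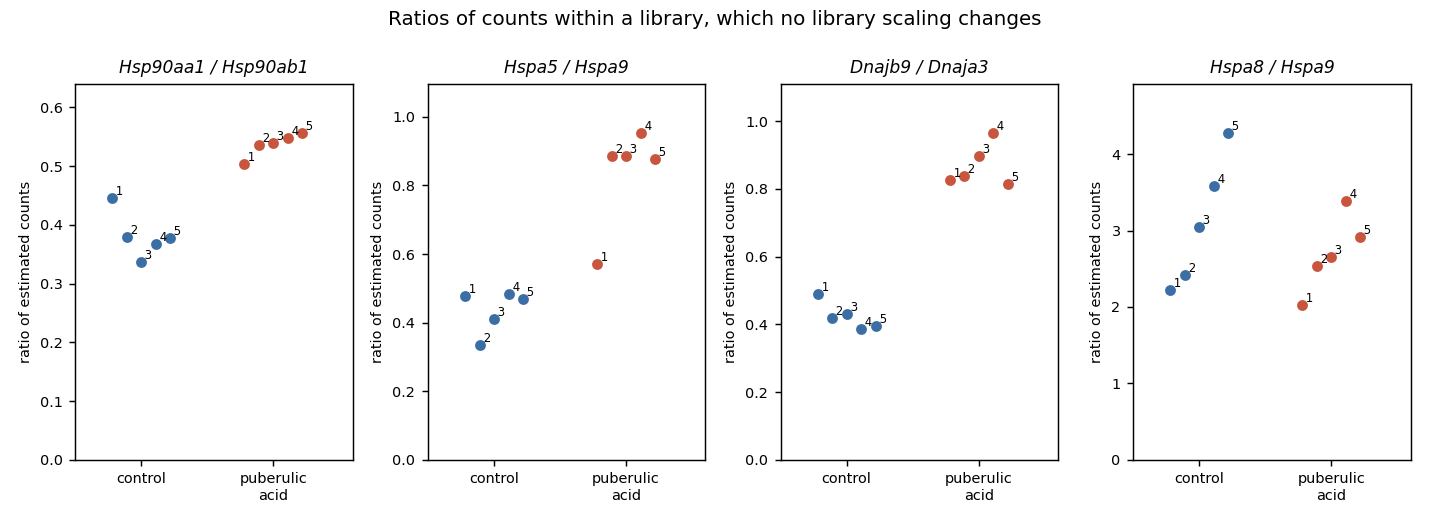
Ratios of member CPM within each library, which do not depend on library scaling, for the 5 samples of each group. Hspa5 over Hspa9 is 0.336 to 0.484 in controls and 0.570 to 0.954 after puberulic acid, and Dnajb9 over Dnaja3 is 0.385 to 0.489 against 0.815 to 0.966, while Hspa8 over Hspa9 overlaps.

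Within libraries, the ER members Hspa5 and Dnajb9 were higher relative to the mitochondrial members Hspa9 and Dnaja3. The ratio of Hspa5 to Hspa9 was 0.336 to 0.484 in controls and 0.570 to 0.954 after puberulic acid, and that of Dnajb9 to Dnaja3 was 0.385 to 0.489 against 0.815 to 0.966. The ratio of the cytosolic Hspa8 to Hspa9 overlapped, at 2.22 to 4.28 against 2.02 to 3.38. These pairs were chosen with the results known and are given without a test.

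The vesicle members split. Dnajc5 (cysteine string protein α), which guards exocytosis proteins, was at 87.0, 78.8, 66.5, 75.5 and 75.3 CPM in controls and 305, 313, 275, 262 and 268 CPM after puberulic acid. No sample overlapped, and the level was 3.71-fold higher (1.89 ± 0.09; adjusted p = 2.02e-08). Dnajc6 (auxilin), which uncoats clathrin vesicles, was at 30.2, 34.1, 25.3, 19.9 and 22.6 CPM against 12.4, 7.20, 6.44, 3.87 and 7.45 CPM (-1.82 ± 0.26; adjusted p = 7.38e-05). The endosomal Dnajc13 was at 145, 144, 159, 158 and 136 CPM against 97.0, 60.1, 61.8, 53.3 and 72.1 CPM (-1.11 ± 0.15; adjusted p = 3.35e-05). Of the members linked to cilia, Dnajb13 is a radial spoke protein of motile cilia. It was at or under 3 counts in every control and at 0.817 to 2.22 CPM after puberulic acid. Its treated mean of 1.52 CPM was 8.41-fold the mean control floor of 3 counts per library (0.18 CPM). Dnajb13 entered the test through the treated group alone, so its call supports nothing. Ciliated epithelium markers summed to 2.74 to 7.38 CPM against 5.01 to 8.16 CPM, with Foxj1 at 0.46 ± 0.264 against 4.22 ± 1.17 CPM (SD, n = 5), having reached 10 counts in 1 control, Ccdc39 called lower (-2.04) and Tekt1 at or under 3 counts in controls. Of members given no compartment, Dnajc28 was at 12.4, 16.5, 12.5, 9.97 and 16.4 CPM against 9.91, 3.49, 4.53, 3.22 and 4.11 CPM (-1.42 ± 0.30; adjusted p = 0.00124), with sample 1 just below the lowest control. Hspbap1 was at 3.99, 5.48, 7.13, 6.36 and 6.69 CPM against 12.9, 9.63, 9.70, 7.62 and 10.1 CPM (0.75 ± 0.19; adjusted p = 0.00361). Dnajc4 (-0.96) and Dnajc22 (-0.54, not held with total counts) also fell, and Dnajc27 (0.54) and Hspbp1 (0.38), an exchange factor of HSP70, also rose.

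The wider cytosolic network was mixed. Of 24 heat shock factors and cytosolic co-chaperones, 6 rose and 8 fell (58.3% called, against 65.3% of all genes), with a median of -0.15. With total counts 15 were higher (62.5%, against 56.4% of all genes) and 1 lower (4.17%, against 15.5%). Cryab, described above, rose most, Bag3 rose by 0.70 (adjusted p = 0.000412), Fkbp4, a partner of HSP90 in steroid receptors, fell by 1.31 (adjusted p = 2.06e-06), Cdc37l1 fell by 0.58 (with total counts -0.07, adjusted p = 0.446), and Hsf1 itself was not called (-0.17; adjusted p = 0.136), but was called higher with total counts (0.34; adjusted p = 0.0113). TRiC is the cytosolic chaperonin that folds actin and tubulin. Of its 8 subunits, 5 rose and 1 fell (75.0% called, against 65.3% of all genes), with a median of 0.26. With total counts 8 were higher (100%, against 56.4% of all genes) and 0 lower. Cct5 rose by 0.68 and Tcp1 by 0.33, and Cct4 fell by 0.20 but was called higher with total counts (0.31; adjusted p = 0.000847). The summed level of the 88 rows was 8904 to 9484 CPM in controls and 7827 to 8498 CPM after puberulic acid, but as a share of total counts without TMM it was 0.742 to 0.793% against 0.924 to 1.06%, so its direction turns with the scaling.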

How the data were processed

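Per the submitters' processing notes, reads were handled with fastp 0.22.0, FastQC 0.12.1, MultiQC 1.28, Salmon 1.10.3 and DESeq2 on GRCm39; the annotation is not given in the sources used here. Per the labels' protocols, libraries were poly(A) selected and directional. The authors deposited one table of estimated counts per gene, which were rounded to whole numbers. Symbols came from GENCODE M21 (51344 of 55822 identifiers). Genes were filtered with filterByExpr, scaled by TMM and tested with edgeR 4.0.16 (R 4.3.3) by the quasi-likelihood test with Benjamini-Hochberg adjustment, 5 control against 5 puberulic acid samples; the test was checked on simulated data. Standard errors were derived from the fold change and the F statistic. The floor is 3 counts. CPM per kb uses the longest protein-coding transcript. The 10 columns of the supplement lots were not used. Members, gene lists and their compartments were chosen with earlier results of these data known. Values in every sample are given for 19 listed members and for the 6 members with the largest fold change in each direction among called members with a mean of 1 CPM or more and no overlap; each other list names the 2 largest called changes in each direction. Other genes named were chosen after their values were seen. Of the 5 promoter motifs, 2 (both heat shock unit pairs) were added after the matches of the first 3 had been seen. The 15 alternatives were other scalings (RLE, total counts), no filter, DESeq2 1.42.0, a replicate block and leaving out each sample.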

Additional observations from a re-analysis of the deposited data

Results flagged for a closer look

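In 58 groups of 5 values searched, 8 had 1 sample far from the other 4, where chance gives about 2.9 (1 in 20). Of these, 5 were the highest value of puberulic acid sample 1: Dnajc12 at 54.1 CPM (next 27.4), Dnajc28 at 9.91 CPM (next 4.53), Dnajc30 at 19.7 CPM (next 14.7), Hspa9 at 797 CPM (next 620) and Hspd1 at 396 CPM (next 307). In controls, Hsp90aa1 was lowest in sample 3 at 323 CPM (next 406), Hspe1 highest in sample 2 at 227 CPM (next 190) and Hsph1 highest in sample 5 at 145 CPM (next 100). The members called in these groups kept their calls without the sample concerned, while Hspa9 and Hsph1 gained one, as given in the report.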

How the results depend on the processing

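Scaling by total counts alone moved the counts of calls: 9179 genes higher and 2526 lower, members 37 higher and 13 lower, cytosolic and nuclear members 22 and 2, ER members 8 and 1, and mitochondrial members 1 higher. It turned the log2 fold change of 30 of 70 tested genes of the other pathway lists, Hsf1 (0.34) and Cct4 (0.31) among them, and of the members Dnaja2 (0.24), Dnajb1 (0.45), Dnajb11 (0.08), Dnajb14 (0.34), Dnajb2 (0.20), Dnajb6 (0.02), Dnajc11 (0.10), Dnajc16 (0.08), Dnajc18 (0.44), Dnajc2 (0.14), Dnajc24 (0.16), Dnajc7 (0.49), Hsp90b1 (0.31), Hspa12a (0.49), Hspa12b (0.28), Hspa8 (0.08), Hspa9 (0.28), Hspb6 (0.40) and Hspb7 (0.04), and moved Hspa2 from 0.00 to 0.51; the cause was not tested. Leaving out single samples turned the direction of uncalled members only, with ranges of -0.23 to 0.17 for Dnajb1, -0.05 to 0.08 for Dnajc10, -0.05 to 0.12 for Dnajc25, -0.15 to 0.05 for Hspa12a, -0.09 to 0.47 for Hspa1a, -0.12 to 0.10 for Hspa2 and -0.04 to 0.08 for Hspa4. Across these fits 10104 to 11108 genes were called (5103 to 5842 higher, 4881 to 5395 lower), with 14 to 19 members higher and 26 to 28 lower, 17 to 21 cytosolic (7 to 12 higher, 9 to 10 lower; 7 without puberulic acid sample 4), 7 to 8 ER (2 to 3 higher, 5 to 6 lower) and 7 to 8 mitochondrial, all lower. Of 19 risen members 14 were called in all 15 alternatives, the others being Dnajb4, Dnajb9, Dnajc17, Hspa14 and Hspa1l; of 26 fallen members all were called lower in the 14 alternatives other than total counts. RLE factors changed no member call. DESeq2 kept all 45 calls and added Dnajc24 (-0.37) and Hspb7 (-0.48) as lower. Same-numbered samples did not deviate together (mean correlation -0.036, from -0.172 to 0.039), so they share only a number; with the replicate block all 45 calls held, Hspb1 had an adjusted p of 1.73e-05, Hspa1b reached 1.25 (adjusted p = 0.0128) and Dnajb1 turned to 0.04. Depth limits Dnajb13, Dnajb3 and Hspa1l, whose controls did not all reach 10 counts.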
